A study of Mus musculus with 2 samples.

Results

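The genes described are 43 nuclear genes for the last steps of mitochondrial respiration, out of 43346 gene rows in the tables. They encode 9 subunits of complex III, 16 of complex IV and 16 of complex V, together with cytochrome c (Cycs) and the inhibitor of complex V (Atpif1). The genes are a list of names with no threshold on a measured value, drawn up with earlier results of these data known, and each of the 43 was found as 1 row in both tables.

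Complex III passes electrons from ubiquinol to cytochrome c, complex IV passes them on to oxygen, and both pump protons out of the mitochondrial matrix. Complex V, the ATP synthase, lets the protons flow back through a rotating ring of c subunits and makes ATP. Each complex holds at least 1 subunit made inside the mitochondrion. The remaining subunits are encoded in the nucleus, some by gene pairs with a widespread form and a form of muscle, lung or testis. In the heart the change from widespread to muscle forms is known to go with maturation around and after birth.

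Total RNA was sequenced from 2 single hearts of B6NCrl mouse embryos at embryonic day 14.5, 1 library each, both in 1 group with no genotype, treatment or second tissue to compare. Each library began with 10 ng of mirVana-extracted RNA longer than 200 nt, with spike-in RNA added. The 2 hearts are called replicate 1 and replicate 2 by the number in the labels. The sex label of both reads as a pool of males and females, although each sample is described as a single heart.

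The libraries held 28537200 counts in replicate 1 and 28958800 counts in replicate 2, of which 96.3% and 96.5% lay on gene rows. All 11 cardiac muscle markers were at 1 TPM (a level that is divided by transcript length and by library size) or more in both libraries, with Actc1, a cardiac actin, at 12209 and 11607 TPM. Of 8 red cell markers, all were higher in replicate 1, with a summed level of 60858 and 34540 TPM in replicates 1 and 2. The lung marker Sftpc was listed at 0 in both libraries, and the 4 liver markers summed to 4.18 and 5.90 TPM. Of 8 skeletal muscle markers, 5 were at 1 TPM or more in both libraries, against 31.5% of all gene rows. The highest were Ckm at 646 and 547 TPM and Acta1 at 184 and 187 TPM in replicates 1 and 2. The skeletal muscle regulator Myod1 was at 0 in both. As whole hearts were used, fewer cells of a type and less RNA per cell cannot be told apart in any level given here.

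The 43 genes stood near the top of the tables. All 43 had at least 1 TPM in both libraries, a level reached by 31.5% of all gene rows. At least 100 TPM in both libraries was reached by 41 of the 43, against 2.97% of all gene rows. At least 1000 TPM in both was reached by 24, against 0.275% of all gene rows. By mean TPM, 18 of the 43 ranked among the 100 highest gene rows and 33 among the 200 highest. Their median level was 1071 and 1104 TPM in replicates 1 and 2, and together they took 2.72% and 2.70% of the counts on gene rows. The exceptions under 100 TPM were Cox4i2 and Cox6b2, the forms known from lung and from testis.

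**Figure D1:**
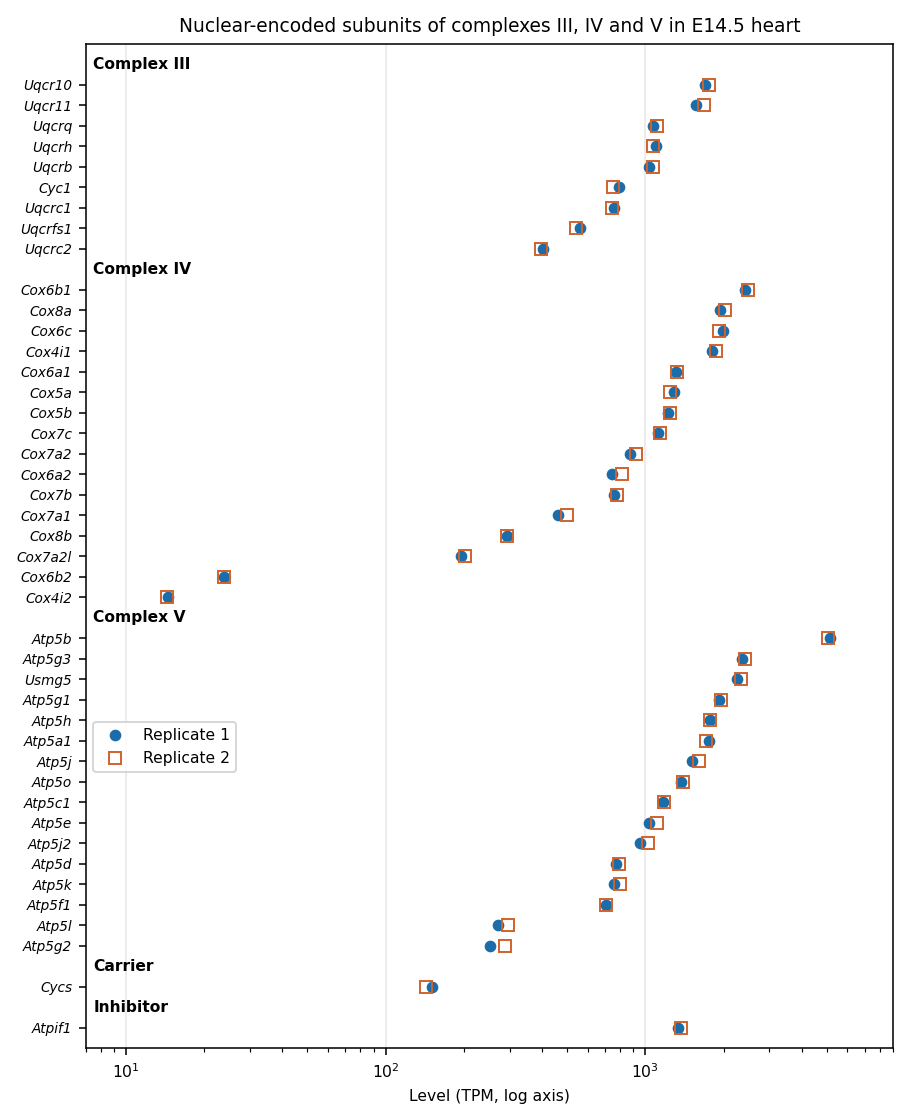
Level in TPM (log axis) of each of the 43 genes, grouped by complex, with a filled circle for replicate 1 and an open square for replicate 2. Of the 43 genes, 24 lie at 1000 TPM or more in both hearts, against 0.275% of all gene rows. Atp5b lies highest at 5123 and 5052 TPM, and Cox6b2 and Cox4i2 lie under 25 TPM.

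In complex III, the 5 small subunits stood above the 4 larger ones. The highest was Uqcr10, a small membrane subunit, with 1700 and 1763 TPM in replicates 1 and 2. Uqcr11, another small subunit, had 1568 and 1689 TPM. Uqcrq had 1071 and 1104 TPM, Uqcrh, the acidic hinge protein near the cytochrome c site, had 1099 and 1071 TPM, and Uqcrb had 1030 and 1071 TPM, so these 3 overlapped. The electron-carrying subunits were lower. Cyc1, which holds the heme that reduces cytochrome c, had 788 and 750 TPM, and Uqcrfs1, the Rieske iron-sulfur protein, had 561 and 542 TPM. Uqcrc1 and Uqcrc2 form the large core on the matrix side. Uqcrc1 had 759 and 741 TPM, and Uqcrc2, the lowest of the complex, had 402 and 395 TPM. Although both core proteins sit in the same complex, Uqcrc1 exceeded Uqcrc2 by a log2 ratio of 0.91 ± 0.01 (SD, n = 2), or 1.88-fold. Between the highest and the lowest subunit of complex III the mean levels differed 4.35-fold.

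In complex V, Atp5b stood alone at the top. It encodes the catalytic beta subunit of the F1 head and had 5123 and 5052 TPM in replicates 1 and 2, the 21st highest mean of all gene rows. Its partner Atp5a1, the alpha subunit that is present in the head in equal number, had 1762 and 1709 TPM, so that Atp5b exceeded it by a log2 ratio of 1.55 ± 0.02 (SD, n = 2), or 2.93-fold. The other F1 genes were Atp5c1, the gamma shaft, at 1170 and 1181 TPM, Atp5e at 1034 and 1105 TPM and Atp5d at 772 and 790 TPM. The stalk that holds the head still is built from Atp5h, Atp5j, Atp5o and Atp5f1. Atp5h had 1777 and 1779 TPM, Atp5j had 1512 and 1607 TPM, Atp5o, the subunit that confers oligomycin sensitivity, had 1377 and 1402 TPM, and Atp5f1 had 705 and 704 TPM. Among the membrane subunits, which shape the dimers of the enzyme, Usmg5 had 2246 and 2326 TPM. Atp5j2 had 953 and 1020 TPM and Atp5k had 759 and 799 TPM. Atp5l was at 271 and 295 TPM in its own row, and Atpif1, which blocks ATP hydrolysis when the proton gradient is lost, was at 1333 and 1376 TPM.

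The c ring is built from 1 mature protein that is encoded by 3 genes with different leader peptides. Atp5g3 had 2346 and 2422 TPM in replicates 1 and 2, which was 51.9% ± 0.07 of the summed TPM of the 3 genes (SD, n = 2). Atp5g1 had 1928 and 1955 TPM, 42.3% ± 0.49 of the sum. Atp5g2 had 252 and 287 TPM, 5.86% ± 0.42 of the sum. The order of the 3 genes was the same in both hearts, and their ranges did not overlap. Summed over their subunits, complex V had 24210 ± 316 TPM, complex IV 16620 ± 251 TPM and complex III 9052 ± 104 TPM (SD, n = 2). These sums cover 16, 16 and 9 genes and grow with that number. The median subunit of complex III had 1030 and 1071 TPM in replicates 1 and 2, above that of complex IV at 995 and 1027 TPM.

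In complex IV the subunits with a single form had levels of 768 to 1953 TPM. Cox6c was the highest of these at 1986 and 1919 TPM in replicates 1 and 2. Cox5a had 1289 and 1240 TPM, Cox5b, the zinc-binding subunit, had 1217 and 1248 TPM, Cox7c had 1116 and 1135 TPM, and Cox7b had 757 and 780 TPM. The rest of the complex comes from paralogous pairs, and in each pair the widespread form had the higher level.

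The muscle forms were present and differed in their share. Cox6a2, the heart and skeletal muscle form of subunit VIa, had 743 and 814 TPM in replicates 1 and 2, against 1316 and 1328 TPM for the widespread Cox6a1. The log2 ratio was -0.76 ± 0.08 (SD, n = 2), and Cox6a2 made up 36.1% and 38.0% of the pair. Cox7a1, the muscle form of subunit VIIa, had 461 and 499 TPM, against 874 and 919 TPM for Cox7a2. The log2 ratio was -0.90 ± 0.03, and Cox7a1 made up 34.5% and 35.2% of the pair. Cox8b, the heart and muscle form of subunit VIII in rodents, had 292 and 293 TPM, against 1938 and 2024 TPM for Cox8a. Here the log2 ratio was -2.76 ± 0.04, and Cox8b made up 13.1% and 12.7% of the pair, a smaller share than those of Cox6a2 and Cox7a1 in both hearts.

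The remaining forms were lower still in TPM, although the share of Cox7a2l in its pair was above that of Cox8b. Cox4i2, which is known from lung and from low oxygen, had 14.5 TPM in each heart from 190 and 191 counts, against 1810 and 1873 TPM for Cox4i1, a log2 ratio of -6.99 ± 0.04 (SD, n = 2). Cox6b2, known from testis, had 23.8 TPM in each heart from 202 and 211 counts, against 2409 and 2483 TPM for Cox6b1, the highest subunit of the complex, a log2 ratio of -6.68 ± 0.03. Cox7a2l, a relative of Cox7a2 that takes part in joining complexes III and IV into supercomplexes, had 195 and 202 TPM and a log2 ratio to Cox7a2 of -2.17 ± 0.02. The paralogs outside the 43 that are known from testis, Cox7b2, Cox8c and Cyct, had at most 3 counts in either library. Mean levels in complex IV spanned 169-fold, against 18.9-fold in complex V and 4.35-fold in complex III.

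**Figure D2:**
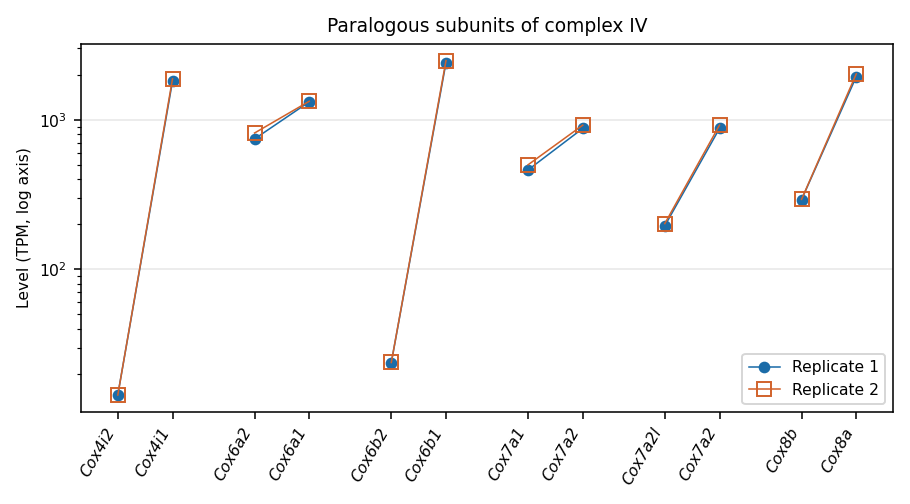
Level in TPM (log axis) of the 6 pairs of paralogous subunits of complex IV, with the muscle, lung, testis or supercomplex form on the left of each pair and the widespread form on the right; filled circles are replicate 1 and open squares replicate 2. Every left point lies under its right point, by the least for Cox6a2 and Cox7a1 and by the most for Cox4i2 and Cox6b2.

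The promoters of the muscle form Cox8b and the widespread form Cox8a are shown because the pair differed 6.76-fold, and those of Atp5g2 and Atp5g3 because these encode the same mature c subunit at the lowest and highest level of the c-ring genes. Each window has 300 bases, 250 before and 50 after a start of the gene in RefSeq on GRCm38.p6, read along the gene (minus strand of the chromosome for all 4). For Atp5g2 this start lies inside the gene row used for its level, which begins upstream at chr15:102672352. Capitals mark matches to any of the searched motifs. They lie at chr7:140900397-140900696 for Cox8b, chr19:7217567-7217866 for Cox8a, chr15:102670998-102671297 for Atp5g2 and chr2:73911277-73911576 for Atp5g3.
Cox8b: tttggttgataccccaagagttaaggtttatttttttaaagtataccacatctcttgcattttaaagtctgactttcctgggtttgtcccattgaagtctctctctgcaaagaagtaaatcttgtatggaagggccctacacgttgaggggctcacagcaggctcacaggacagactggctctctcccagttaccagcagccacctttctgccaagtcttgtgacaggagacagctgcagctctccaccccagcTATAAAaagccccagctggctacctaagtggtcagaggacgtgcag
Cox8a: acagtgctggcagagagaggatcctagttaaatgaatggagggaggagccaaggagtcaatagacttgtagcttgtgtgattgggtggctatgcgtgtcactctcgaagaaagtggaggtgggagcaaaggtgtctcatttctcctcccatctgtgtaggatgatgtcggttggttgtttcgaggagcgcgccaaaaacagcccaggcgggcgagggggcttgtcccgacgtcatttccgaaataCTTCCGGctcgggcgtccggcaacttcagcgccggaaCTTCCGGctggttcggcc
Atp5g2: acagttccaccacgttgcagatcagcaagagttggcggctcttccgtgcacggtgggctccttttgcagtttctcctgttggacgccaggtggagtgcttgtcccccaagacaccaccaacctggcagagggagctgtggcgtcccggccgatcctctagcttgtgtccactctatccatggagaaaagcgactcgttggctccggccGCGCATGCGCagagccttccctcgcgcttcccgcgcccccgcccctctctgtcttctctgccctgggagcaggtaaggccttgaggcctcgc
Atp5g3: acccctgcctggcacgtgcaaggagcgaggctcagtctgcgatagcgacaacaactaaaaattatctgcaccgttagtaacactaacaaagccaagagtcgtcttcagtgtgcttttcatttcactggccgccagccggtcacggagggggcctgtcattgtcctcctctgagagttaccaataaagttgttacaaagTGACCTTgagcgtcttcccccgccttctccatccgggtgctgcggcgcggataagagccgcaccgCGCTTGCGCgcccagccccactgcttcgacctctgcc
The searched letters, on both strands, were GCGCANGCG for the nuclear respiratory factor NRF1, CCGGAAG for ETS factors such as GABP, AAGGTCA for estrogen-related receptors, AAGATGGC for YY1 and TATAAA for the TATA box. In the windows shown, Cox8b held TATAAA at bases 255 to 260 and none of the other 4 motifs. Cox8a held the ETS letters on the opposite strand at bases 246 to 252 and 283 to 289. Atp5g2 held NRF1 letters on both strands, overlapping at bases 209 to 218. Atp5g3 held the receptor letters at bases 199 to 205 and the NRF1 letters at bases 264 to 272, both on the opposite strand.

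Windows were in the table for 34 of the 43 genes, 37 windows in all. The NRF1 letters were in 12 of the 37 (32.4%), against 6.25% of all 32851 promoter windows. The ETS letters were in 11 (29.7%), against 8.86% of all windows, and 18 windows (48.6%) held one or both of these, against 13.9% of all windows. The receptor letters were in 5 windows (13.5%), against 4.72%, and the YY1 letters in 3 (8.11%), against 2.75%. TATAAA was in 3 windows (8.11%), those of Cox8b, Atp5l and Usmg5, against 13.6% of all windows. A match describes the letters only, and no binding was measured.

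Several rows shared their sequence with other rows, and 3 of the lowest levels above belong to such genes. A row was counted as a copy where at least 50% of the 25-base words of one of its transcripts also occurred in the gene, and 15 of the 43 genes had a copy. In 4 genes the copies held at least 10% of the gene's own count in either library, namely Atp5l, Cycs, Atp5g2 and Cox7c. In the other 39 they held under 5%. The case of Atp5l is shown in letters. The row Gm10221, a processed pseudogene at chr5:24581554-24581862 on the minus strand, has a transcript of 309 bases in GENCODE M21 (GRCm38) that equals bases 82 to 390 of the Atp5l transcript Atp5l-201, letter for letter. Atp5l itself lies at chr9:44912557-44920742, also on the minus strand, and the first 150 of the shared bases are printed, with the start codon in capitals.
Atp5l and Gm10221: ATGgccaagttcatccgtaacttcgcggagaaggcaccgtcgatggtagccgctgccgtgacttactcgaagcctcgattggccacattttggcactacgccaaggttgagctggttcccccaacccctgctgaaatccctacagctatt
The deposited tables give longer transcript lengths for Gm10221 (422 nt) and a shorter one for Atp5l-201 (511 nt) than GENCODE M21, so the counted sequences were not exactly these.

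Gm10221 held 9140 counts in replicate 1 and 9141 counts in replicate 2, against 2335 and 2556 counts in the row of Atp5l. Copies can be added in 2 ways, by dividing their counts by the length of the gene itself or by summing the TPM of the rows, each over its own length. Atp5l stood at 1332 and 1352 TPM in replicates 1 and 2 over its own length, 4.75-fold over its own row, and at 1626 and 1644 TPM as a sum of rows, 5.79-fold. Either level lay within the range of the stalk subunits. Cytochrome c, the mobile carrier between complexes III and IV, had 151 and 143 TPM in its own row. Its row held 9290 and 8816 counts, beside 11168 and 10713 counts in Gm10053, annotated as protein coding, and 5188 and 4800 counts in Gm10108, a processed pseudogene. The mean transcript length of Cycs is 3033 nt, against 949 nt for Gm10053 and 318 nt for Gm10108. Over its own length Cycs stood at 417 and 395 TPM in replicates 1 and 2, 2.76-fold over its own row, and as a sum of rows at 1912 and 1784 TPM, 12.6-fold. Atp5g2 had 3323 and 3813 counts, beside 3671 and 4458 counts in Gm10175, and stood at 530 and 623 TPM over its own length and at 610 and 720 TPM as a sum of rows. It was the lowest of the c-ring genes in both, at 11.5% ± 1.01 and 12.9% ± 1.14 of their sum (SD, n = 2). Cox7c stood at 1260 and 1281 TPM over its own length and at 1745 and 1776 TPM as a sum of rows. How many of these reads came from the copies was not tested.

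**Figure D3:**
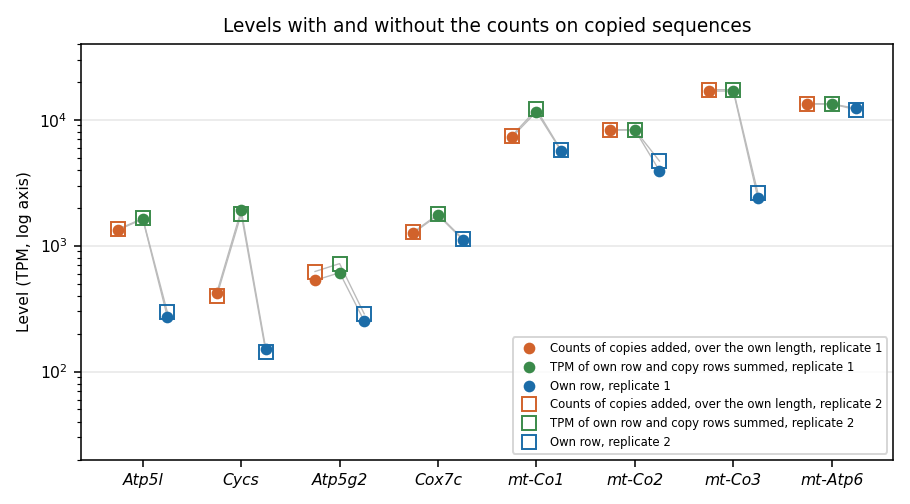
Level in TPM (log axis) with the counts of sequence copies added over the gene's own length (left, orange), as the summed TPM of its own row and the copy rows (middle, green) and in its own row (right, blue), for 4 nuclear genes and 4 mitochondrially encoded genes; filled circles are replicate 1 and open squares replicate 2. The left and middle points are above the right one in all 8 genes, and Cycs has the widest gap between left and middle.

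By mean TPM, each subunit made inside the mitochondrion stood above every nuclear-encoded subunit of its own complex. The closest was mt-Co3, whose own row had 2385 and 2617 TPM in replicates 1 and 2 and overlapped with that of Cox6b1 at 2409 and 2483 TPM. In complex III, mt-Cytb (cytochrome b) had 5891 and 5907 TPM, against a median of 1030 and 1071 TPM for the 9 nuclear-encoded subunits, a log2 ratio of 2.49 ± 0.04 (SD, n = 2). In complex IV, mt-Co1, mt-Co2 and mt-Co3, the catalytic core, had a median of 3930 and 4695 TPM in replicates 1 and 2, against 995 and 1027 TPM for the 16 nuclear-encoded subunits, a log2 ratio of 2.09 ± 0.15. In complex V, mt-Atp6 and mt-Atp8, which belong to the proton channel, had a median of 10528 and 10284 TPM, against 1273 and 1291 TPM for the 16 nuclear-encoded subunits, a log2 ratio of 3.02 ± 0.04. The ratio of complex IV rests on rows that share sequence with chromosome 1. A copy of mt-Co3 there held 85.9% of their joint counts in replicate 1 and 84.9% in replicate 2. One of mt-Co2 held 52.6% and 43.4%, and one of mt-Co1 held 22.1% and 23.2%. With the counts of these copies added over the genes' own lengths, the log2 ratio of complex IV was 3.04, or 8.20-fold in place of 4.25-fold. As a sum of rows it was 3.55, or 11.7-fold, and the median was then mt-Co1 with its copy, at 11557 and 12080 TPM. With a chromosome 1 copy of mt-Atp6 added, the log2 ratio of complex V became 3.10 in both ways. Compared as sums over subunits in place of medians, the mitochondrially encoded subunits were lower than the nuclear-encoded ones in each complex, with log2 ratios of -0.62, -0.41 and -0.22 for complexes III, IV and V.

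The transcript tables split most genes onto 1 form. Of the 43 genes, 11 had a single transcript. In the other 32 the leading transcript was the same in both hearts. Its share of the TPM was 50% or more in all 43 genes and 95% or more in 28. The leading transcript was not annotated as coding in 4 genes. In Atp5f1 it was Atp5f1-203, annotated for nonsense-mediated decay, at 67.5% ± 0.40 (SD, n = 2). In Atp5j it was Atp5j-208, a retained intron, at 70.3% ± 0.20, and in Cox7b it was Cox7b-203, also a retained intron, at 51.1% ± 0.23. In Cox5b it was Cox5b-205, a processed transcript with no annotated reading frame, at 57.5% ± 0.72. By share of counts, which is not divided by length, only Atp5f1 and Atp5j kept a noncoding leader. The transcript biotypes are those of GENCODE M21, and read assignment between overlapping transcripts is an estimate.

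Coding transcripts held at least 90% of the TPM in 36 of the 43 genes. Besides the 4 genes above, the share was lower in Atp5b at 70.2% ± 0.65, Uqcrq at 76.0% ± 0.09 and Cox7c at 89.96% ± 0.57 (SD, n = 2). In Atp5b much of the rest lay on Atp5b-206, a processed transcript of 478 nt that had 1354 and 1377 TPM in replicates 1 and 2. On coding transcripts alone Atp5b had 3619 and 3523 TPM, and its excess over Atp5a1 was 2.25-fold in place of 2.93-fold. It was still the highest of the 43 genes. By counts, which are not divided by length, coding transcripts held 91.4% ± 0.18 of Atp5b, and 38 of the 43 genes were at 90% or more.

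**Figure D4:**
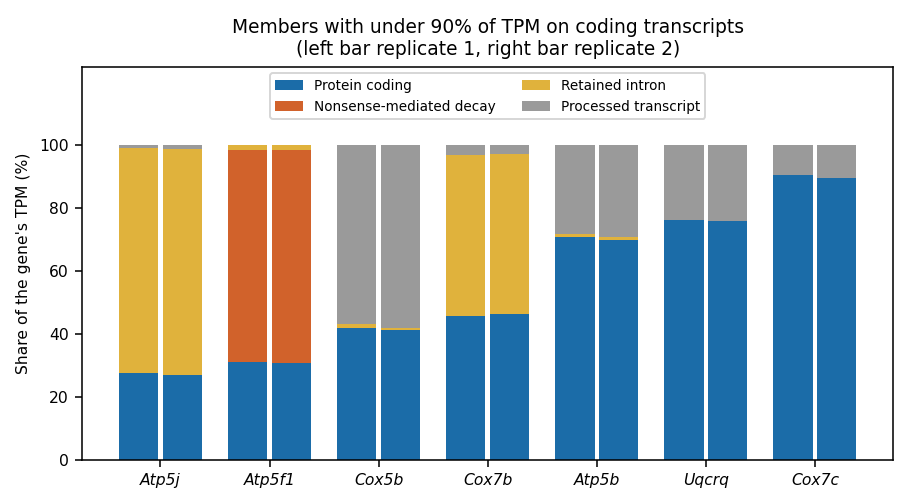
Share of the gene's TPM (%) on transcripts of each annotated class in the 7 genes with a mean coding share under 90%, with the left bar for replicate 1 and the right bar for replicate 2. The coding part is smallest in Atp5j and Atp5f1, and the bars of both hearts look alike in each gene.

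The gamma subunit gene Atp5c1 has an exon near its end that is known to be left out in heart and skeletal muscle. It is exon 9 of Atp5c1-203, 37 nt at chr2:10056770-10056806 on the minus strand (GRCm38, GENCODE M21). It is shown in full because the muscle form lacks these bases.
Atp5c1 exon 9: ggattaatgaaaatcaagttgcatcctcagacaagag
The transcript without it had 1027 and 1033 TPM in replicates 1 and 2. The transcripts with it, Atp5c1-202 and Atp5c1-203, summed to 135 and 142 TPM. The form without the exon thus held 88.2% ± 0.29 of their sum (SD, n = 2), and 86.8% ± 0.36 by counts. The transcripts also differ outside this exon, with 1060 nt for the one without it and 1735 and 1166 nt for Atp5c1-202 and Atp5c1-203. The shares are thus estimates over whole transcripts and do not rest on the exon alone. Both shares were close in the 2 hearts. Here the muscle form was the higher one, whereas in the complex IV pairs it was the lower one.

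Between the hearts the 43 genes differed little. Differences are log2 of replicate 1 over replicate 2 on counts scaled with TMM (trimmed mean of M-values), with exact 95% intervals that cover counting error only. With 1 library per heart and no second group, no test of a condition is possible. None of the 43 was higher by 25% or more in either heart, a log2 difference of 0.32, against 8.66% of the 11958 genes that averaged 100 counts or more and 2.20% of the 5717 genes that averaged 1000 counts or more. The differences ran from -0.14 to 0.13 with a median of 0.01, against a median of 0.00 over the 11958 genes. Atp5g2 was the only one at least 10% apart, at -0.14 (interval -0.21 to -0.08), against 35.9% of the genes at the lower count minimum and 22.5% at the higher one. Cycs was at the other end at 0.13 (0.09 to 0.17), followed by Cyc1 at 0.12 (0.09 to 0.15). Both Atp5g2 and Cycs are among the genes with large copies. Of the 43, 17 were lower in replicate 1, against 48.9% of the 11958 genes. The sign depends on the scaling, since the spike-in total moves all genes by -0.11. With it, 41 of the 43 were lower in replicate 1, against 77.7% of the 11958 genes.

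By complex, the genes at the ends of the range were spread on both sides of 0. In complex III, Uqcr10 was at -0.01 (-0.04 to 0.03), Uqcr11 at -0.06 (-0.10 to -0.02) and Uqcrq at 0.03 (-0.02 to 0.07), and the lowest genes Uqcrfs1 and Uqcrc2 were at 0.10 (0.06 to 0.13) and 0.04 (0.00 to 0.07). In complex V, Atp5g3 was at 0.00 (-0.02 to 0.02), Usmg5 at 0.00 (-0.04 to 0.03), Atp5g1 at 0.03 (0.00 to 0.06) and Atp5l at -0.08 (-0.16 to 0.01). Apart from Atp5g2, the intervals of the c-ring genes thus lay within 0.06 of 0. In complex IV, Cox6c was at 0.10 (0.07 to 0.13) and Cox5a at 0.10 (0.07 to 0.13), both with intervals above 0 under TMM.

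Of the 3 muscle forms of complex IV, 2 had differences below 0 under TMM, against 48.9% of the 11958 genes. Cox6a2 was at -0.08 (-0.13 to -0.04), against 0.03 (0.00 to 0.07) for Cox6a1, and these intervals did not overlap. Cox7a1 was at -0.07 (-0.14 to 0.01), against -0.02 (-0.06 to 0.01) for Cox7a2, so these intervals overlapped. Cox8b was at 0.04 (-0.06 to 0.14), against -0.02 (-0.05 to 0.01) for Cox8a, and these overlapped too. Cox4i2 at 0.05 (-0.25 to 0.34) and Cox6b2 at -0.01 (-0.29 to 0.28) had wide intervals from their low counts, against 0.00 (-0.02 to 0.03) for Cox4i1 and 0.00 (-0.02 to 0.03) for Cox6b1. Cox7a2l was at 0.00 (-0.06 to 0.06).

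Several long transcripts with high counts had intervals above 0 under TMM. Atp5b was at 0.08 (0.07 to 0.09), Atp5a1 at 0.10 (0.09 to 0.12) and Uqcrc1 at 0.08 (0.05 to 0.11). Among the 10 genes of the 43 with a mean transcript length of at least 1000 nt, 1 was lower in replicate 1 and the median was 0.08. Among the 11 of 600 to 1000 nt, 4 were lower and the median was 0.00, and among the 22 under 600 nt, 12 were lower and the median was also 0.00. Of all genes that averaged 1000 counts or more, 40.9%, 57.0% and 74.9% were lower in replicate 1 from the longest to the shortest class, with medians of 0.02, -0.02 and -0.05. The spike-in RNAs were at 0.11, 0.11 and 0.13 in the same classes. The part of RNA length or of red cells in these differences was not tested, and the length classes were chosen after the values had been seen.

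**Figure D5:**
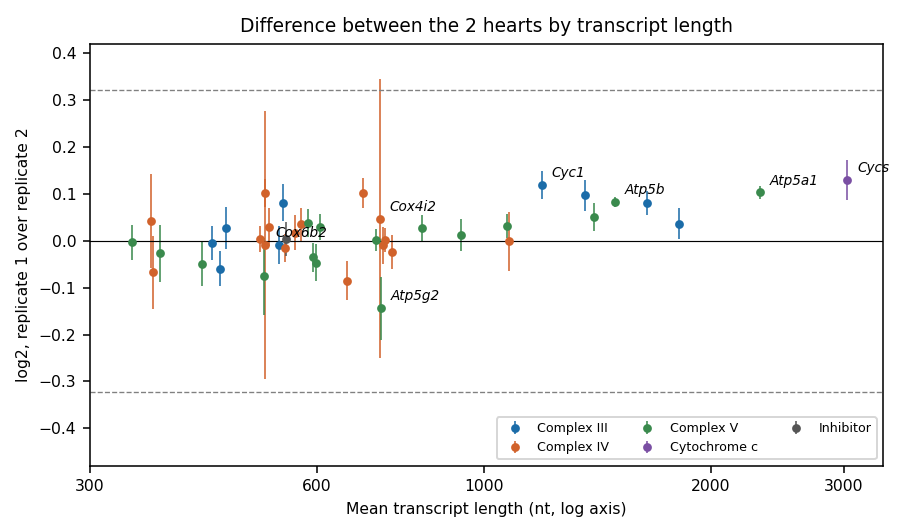
Log2 difference of replicate 1 over replicate 2 (y axis) against mean transcript length in nt (log x axis) for the 43 genes, coloured by complex, with bars for the exact 95% counting intervals and dashed lines at a difference of 25%, 0.32 on the log2 scale. All points lie inside the dashed lines, and 9 of the 10 genes from 1000 nt upward lie above 0.

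The other genes of the pathway gave the levels around these complexes. The 36 nuclear-encoded subunits of complex I had a median of 499 and 524 TPM in replicates 1 and 2, with Ndufc1 and Ndufab1 the highest at 1403 ± 41.3 and 1238 ± 25.3 TPM (SD, n = 2). The 4 subunits of complex II had a median of 533 and 526 TPM, with Sdhb at 787 ± 4.60 and Sdhd at 577 ± 20.5 TPM. None of these genes was 25% or more apart between the hearts, against 2.20% of the 5717 genes that averaged 1000 counts or more. A further 8 subunits and relatives outside the 43, some of them named late, had a median of 54.2 and 56.0 TPM in replicates 1 and 2. The highest were Ndufa4, now counted to complex IV, at 1589 ± 39.5 TPM and Mp68, a small subunit of complex V, at 1540 ± 75.0 TPM. Higd2a was at 248 ± 0.06, Higd1a at 86.5 ± 4.82 and Ndufa4l2 at 23.8 ± 2.24 TPM, and the other 3 are the testis paralogs given above.

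Assembly factors were far lower than the subunits. Those of complex III had a median of 35.5 and 40.7 TPM in replicates 1 and 2 over 6 genes, with Uqcc2 at 252 ± 17.3 and Uqcc1 at 84.4 ± 0.06 TPM. Those of complex IV had a median of 33.4 and 30.0 TPM over 23 genes, with the copper chaperone Cox17 at 263 ± 0.53 and Cox20 at 222 ± 16.3 TPM. Those of complex V had a median of 70.9 and 73.6 TPM over 4 genes, with Fmc1 at 227 ± 9.28 and Tmem70 at 76.9 ± 4.05 TPM. The 11 regulators of respiratory genes had a median of 24.4 TPM, taken over each gene's mean of the 2 hearts. The coactivator Ppargc1a was highest at 52.6 ± 3.27 TPM, followed by Tfam, which acts on mitochondrial DNA, at 34.1 ± 5.03 TPM. Of these 11, 2 were 25% or more apart between the hearts, against 8.66% of the 11958 genes that averaged 100 counts or more. They were the receptor genes Esrra at -0.36 (316 and 422 counts) and Esrrb at 0.45 (161 and 122 counts).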

How the data were processed

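Total RNA-seq of 2 single hearts was analysed from the gene and transcript tables the authors deposited for each library. Per the file headers, the values the authors deposited are expected counts per gene and transcript, posterior mean counts with their SD, TPM and FPKM, with replicates not pooled. Per the labels and the description deposited with the tables, the build was mm10 with GENCODE M4. An aligner or counting program is not given in the sources used here.

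Expected counts were rounded to whole numbers and scaled with TMM in edgeR 4.0.16 over the 43346 gene rows; spike-in and other rows stayed out. Of these rows, 42462 were given a symbol through GENCODE M21 identifiers. Log2 differences used a prior count of 0.5 and exact Clopper-Pearson intervals (scipy 1.17.1). At this depth 1 count per kb was worth 0.0478 and 0.0475 TPM in replicates 1 and 2. The scaling and the intervals were tested on simulated data. The alternatives included DESeq2 1.42.0 size factors, totals, spike-ins, FPKM, other thresholds and leaving out each library. Copies were found by shared words of 25 bases.

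The names of the genes, the lists and the marker genes were chosen with earlier results of these data known. All 43 genes are named with a level. The 3 highest and 2 lowest of each complex, the paralogous pairs and the c-ring genes are given in full, and context lists by count, median and their 2 highest genes. Nothing in the labels pairs the libraries or gives further groups, and no p-value was computed.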

Additional observations from a re-analysis of the deposited data

How the results depend on the processing

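No paired analysis was possible because the series has 1 group of 2 libraries. Of 121 recomputed values, 87 kept their direction and stayed within the set limit, 31 moved further and 3 were counted as reversed. The median difference between the hearts was counted only as kept or moved. It changed sign with total gene counts, the spike-in total and TPM. The limit was the spread, or for numbers of genes a ratio to the reported number. Part of the 87 was fixed in advance. With 2 libraries, a ratio, share or sum from 1 library always lies within the SD, and FPKM ratios equal TPM ratios. Larger folds could add no gene, and lower count minimums changed nothing, as all 43 genes averaged 100 counts or more. The counts of genes past 1 TPM, 100 TPM and a difference of 25% kept the same side under every threshold, scaling, count type and left-out library tried, with 39 genes at 200 TPM the lowest count. The 3 counted as reversed are the sums over subunits. Their mitochondrially encoded over nuclear-encoded log2 ratios were -0.62, -0.41 and -0.22 in complexes III, IV and V. By construction a sum grows with the number of subunits. With posterior mean counts the ratio was 2.49 in complex IV and 2.89 in complex V, with the chromosome 1 copies 3.04 and 3.10, and with the TPM of those rows added 3.55 and 3.10.

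The median difference of the 43 genes was 0.0127 with TMM, -0.0178 with total gene counts, -0.0988 with the spike-in total and -0.0360 in TPM. Without division by length the log2 ratio was -0.52 for Cox6a2 over Cox6a1, -2.21 for Cox7a1 over Cox7a2, -1.59 for Cox7a2l over Cox7a2 and -3.52 for Cox8b over Cox8a, and the c-ring shares were 37.4% for Atp5g1, 6.46% for Atp5g2 and 56.1% for Atp5g3. With 1 TPM added, Cox4i2 over Cox4i1 was -6.90 and Cox6b2 over Cox6b1 was -6.62. With the counts of copies added, a choice made after seeing the data, the c-ring shares were 40.7%, 11.5% and 47.7%, and complex V summed to 25700 TPM. With the TPM of the copy rows added, also chosen after seeing the data, the shares were 40.7%, 12.9% and 46.4%, and complexes IV and V summed to 17296 and 26171 TPM. TPM rescaled over gene rows outside the mitochondrial genome gave sums of 10472, 19226 and 28007 TPM for complexes III, IV and V. This rescaling also left out spike-in and other rows. The mitochondrial genome itself held 6.14% and 6.29% of the TPM in replicates 1 and 2. By share of counts, 2 genes in place of 4 were led by a noncoding transcript. With either library left out, the log2 ratios moved by at most 0.11, for complex IV (1.98 to 2.19).

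With 2 hearts an SD rests on 2 values, and intervals cover counting error only. At 190 to 211 counts the intervals of Cox4i2 and Cox6b2 span about 0.6 on the log2 scale.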
